A study of Salmo salar with 16 samples.

Results

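The spleen transcriptome was compared between 4 Atlantic salmon fed the diet ACJ and 4 fed the diet SBM, which together are 8 of the 16 fish sequenced in the study. All 8 fish ate soybean meal at 40% of the diet for 37 days. The ACJ diet also contained 5% of the yeast Cyberlindnera jadinii after autolysation, in which the cells are broken down by their own enzymes, and the SBM diet contained no yeast. The groups thus differed in the processed yeast on a shared soybean background, and every expressed gene entered the comparison. By the paper's diet formulation, the ACJ diet also held less wheat gluten, potato starch and, slightly, fishmeal than the SBM diet. Effects of the yeast and of these ingredients cannot be told apart. The other 8 fish, 4 on the fishmeal diet FM and 4 on ICJ, which had the same amounts of soybean meal and of heat-inactivated C. jadinii, entered only where they are named and in the estimate of the spread between fish. Each diet was fed in duplicated tanks, and which fish came from which tank is not in the labels. Effects of tank and of diet cannot be told apart for this reason, and in the tests each fish counted as an independent replicate.

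The spleen of a bony fish is both a filter of the blood and a lymphoid organ. Its sinusoids hold red cells, which in fish keep a nucleus and continue to transcribe globin genes, together with nucleated thrombocytes, macrophages that take up particles and worn red cells, and B and T cells. Yeast brings cell wall glucans and mannans, which pattern recognition receptors of myeloid cells can bind, as well as nucleic acids and peptides that autolysis partly releases. Salmon have no compact pancreas, and islands of pancreatic tissue lie scattered in the fat around the pyloric caeca and close to the spleen.

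The counts summed to between 6466634 and 9100203 fragments per fish in SBM and between 5032593 and 7414858 in ACJ, over 79141 annotated features. Values below are CPM (counts per 1000000 counts, with the library totals scaled by TMM). Lists of values run from fish 1 to fish 4 of a diet, and log2 fold changes of ACJ against SBM are given ± SE, with n = 4 fish per diet. Hemoglobin, B cell, T cell and macrophage genes were found in all 8 libraries, as a spleen should show. Exocrine pancreas genes were found as well, and differed widely between fish: 5 such markers, chosen after their values were seen, summed to 0.7, 90.7, 35.7 and 3.2 CPM in SBM and to 148.8, 115.2, 20.1 and 233.6 CPM in ACJ. SBM1 and SBM4 were nearly free of these transcripts, whereas ACJ1, ACJ2 and ACJ4 had the most, and the diets overlapped. Islet genes varied too, with 6 markers, also chosen after their values were seen, at 2.3 to 126 CPM in SBM and 7.7 to 316 CPM in ACJ. A further 3 skeletal muscle genes summed to 37.9 to 69.96 CPM in SBM and 55.2 to 113 CPM in ACJ. In a principal component analysis of the 8 fish, the first component took 37.9% of the variance and ran from SBM1 (score −75), SBM4 (−42.6), ACJ3 (−22.4) and SBM3 (−11.5) to SBM2 (22.2), ACJ2 (40.2), ACJ1 (41.2) and ACJ4 (47.8). The 4 fish lowest in the exocrine pancreas markers were thus the 4 lowest on this component. This did not hold for the islet markers, which were highest within SBM in SBM3 (126 CPM). In bulk tissue, fewer cells of a type and less RNA per cell cannot be told apart.

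Across the 28930 genes tested with all 16 fish in the fit, no gene passed the adjusted threshold of 0.05 between ACJ and SBM (0% called, edgeR quasi-likelihood test with Benjamini-Hochberg adjustment, smallest adjusted p = 0.602). At an unadjusted p below 0.05, 1025 genes were higher in ACJ (3.54%) and 970 were lower (3.35%), and the median log2 fold change of all tested genes was −0.0018. The 4 ACJ fish were all above the 4 SBM fish for 772 genes (2.67%) and all below them for 622 (2.15%). When only the 8 fish compared were fitted, without the FM and ICJ fish in the estimate of the spread, the same edgeR test called 8 of 27791 genes (0.0288%), 5 higher and 3 lower in ACJ. DESeq2 on the same 8 fish called 92 genes higher (0.444%) and 46 lower (0.222%) among 20700 with an adjusted p, and 7 of the 8 edgeR calls were among them. DESeq2 over the 16 fish called 6 genes (0.0127%). The number of calls therefore depended on the test and on the fish in it, and the genes the results turn on are given below with their value in every fish. For the 8 genes that edgeR called in the 8 fish, log2 fold changes and SE come from that fit. For other genes they come from the edgeR fit of 16 fish unless another fit is named. A DESeq2 adjusted p beside them belongs to a separate fit and not to that SE.

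Of the 8 genes called by edgeR in the 8 fish, the lowest adjusted p belonged to a kinase and an exchange factor. LOC106607301, a homolog of serine/threonine-protein kinase 17A, a death-associated kinase family member, lies on chromosome 6 from 37463421 to 37479709 of the ICSASG_v2 build. It measured 177, 208, 194 and 188 CPM in SBM and 129, 119, 113 and 123 CPM in ACJ. Every ACJ fish was well below every SBM fish, and the log2 fold change was −0.66 ± 0.07 with an adjusted p of 0.00594 (edgeR, 8 fish). It was called in each of the 8 fits that left out 1 fish, and also by DESeq2 over all 16 fish (adjusted p = 0.0296). LOC106589836, named cytohesin-1-like after an exchange factor that activates the small GTPase ARF, lies on chromosome 28 from 28697292 to 28752503. It measured 2.27, 1.71, 2.19 and 2.95 CPM in SBM and 8.86, 8.39, 7.84 and 8.49 CPM in ACJ. The ACJ fish agreed closely with each other and were 3.68 times the SBM mean (log2 fold change 1.85 ± 0.20, edgeR adjusted p = 0.00594 in 8 fish, called without any 1 fish).

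The largest change among the 8 was in an adhesion gene. LOC106582912, cadherin-4-like, from a family of calcium-dependent cell adhesion proteins, lies on chromosome 22 from 16685696 to 16928337 and measured 3.68, 5.12, 5.75 and 9.17 CPM in SBM and 0.475, 0.899, 0.261 and 0.424 CPM in ACJ. Levels were low in both diets, and in ACJ they were near the CPM that 3 counts make in these libraries. The fitted log2 fold change was −3.50 ± 0.41 (edgeR adjusted p = 0.00814 in 8 fish, called in 7 of 8 fits with 1 fish left out), and DESeq2 gave it no adjusted p. The FM fish, from 0.286 to 5.34 CPM, and the ICJ fish, from 1.13 to 12.1 CPM, covered much of the distance between ACJ and SBM.

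Genes higher in ACJ included a red cell surface protein, a lipid enzyme and a regulator of autophagy. LOC106575861 (kel), the Kell blood group glycoprotein of the red cell membrane, on chromosome 2 from 8909276 to 8915313, measured 29.9, 28.3, 23.8 and 30.6 CPM in SBM and 50.2, 45.98, 43.7 and 49.4 CPM in ACJ. It had a log2 fold change of 0.75 ± 0.10 (edgeR adjusted p = 0.0134 in 8 fish). LOC106590143 (lpin2), a phosphatidate phosphatase that makes diacylglycerol, on chromosome 29 from 12358228 to 12405596, measured 37.5, 40.5, 29.4 and 44.6 CPM in SBM and 72.5, 70.98, 63.5 and 70.03 CPM in ACJ. It had a log2 fold change of 0.86 ± 0.11 (edgeR adjusted p = 0.0134). Both groups were tight and separate for these genes, and each was called in 6 of the 8 fits that left out 1 fish. The gene tp53inp2, whose product takes part in autophagosome formation, on chromosome 13 from 13384412 to 13400710, measured 122, 109.9, 89.7 and 129 CPM in SBM and 190.1, 174, 176 and 171 CPM in ACJ. No SBM fish reached the lowest ACJ fish, and the log2 fold change was 0.66 ± 0.10. The call (edgeR adjusted p = 0.0466) held in 3 of 8 fits with 1 fish left out.

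The remaining calls were both transcriptional regulators. LOC106567727, a homolog of the zinc finger repressor ZBTB16, on chromosome 13 from 67427085 to 67550893, measured 6.94, 10.6, 8.90 and 8.33 CPM in SBM and 17.9, 16.6, 20.6 and 16.1 CPM in ACJ (log2 fold change 1.05 ± 0.15, edgeR adjusted p = 0.0342 in 8 fish). LOC106613039, named for the repressor hypermethylated in cancer 1, on chromosome 9 from 114989114 to 115001006, measured 42.9, 44.6, 54.8 and 36.3 CPM in SBM and 26.1, 20.4, 24.2 and 26.7 CPM in ACJ (log2 fold change −0.87 ± 0.13, edgeR adjusted p = 0.0409). The ACJ fish were above all SBM fish for the first and below them for the second, and the calls held in 3 and in 2 of the 8 fits with 1 fish left out. In the edgeR quasi-likelihood fit of all 16 fish, adjusted p for these 8 genes was at least 0.602. The FM and ICJ fish varied widely for several of them, and ICJ ran from 18.97 to 66.9 CPM for kel and from 1.81 to 14.8 CPM for the cytohesin.

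**Figure D1:**
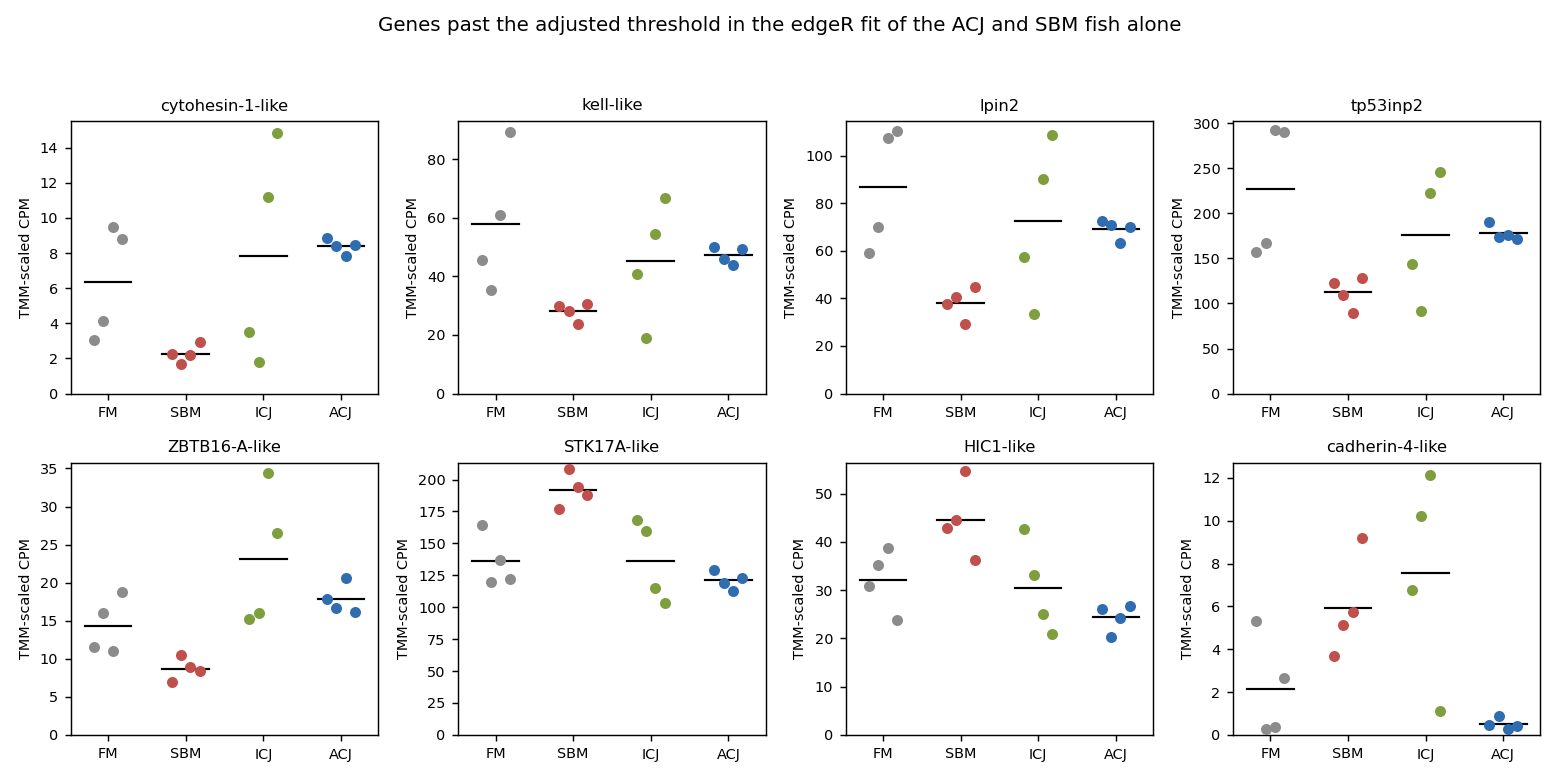
Level in CPM (vertical axes, from 0) of the 8 genes called by edgeR in the fit of 8 fish, 1 panel per gene, with 1 point per fish and a bar at the diet mean for FM, SBM, ICJ and ACJ. In every panel the ACJ points lie apart from the SBM points, as for kel with 43.7 to 50.2 CPM in ACJ and 23.8 to 30.6 CPM in SBM.

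The 10 genes with the smallest unadjusted p among those higher in ACJ without overlap, and with a mean log2 CPM no lower than 1, differed by moderate amounts. The smallest p was that of LOC106585113, a homolog of the transcriptional co-repressor gene ZNF703, which measured 27.2, 27.9, 20.5 and 23.1 CPM in SBM and 38.8, 45.98, 38.4 and 32.04 CPM in ACJ. Its log2 fold change was 0.66 ± 0.12, and DESeq2 over 16 fish called it (adjusted p = 0.0296). LOC106591349, tensin-like, from a family that links integrins to actin, measured 45.6, 47.2, 52.7 and 53.7 CPM in SBM and 79.3, 74.1, 81.7 and 61.1 CPM in ACJ. Its log2 fold change was 0.57 ± 0.11, also with an adjusted p of 0.0296 in DESeq2. FM fish lay around the SBM range for both genes, from 21.7 to 26.7 and from 38.9 to 58.01 CPM. LOC106574026 (mknk1), a kinase downstream of MAP kinases that phosphorylates the cap-binding initiation factor, measured 28.2, 20.8, 26.4 and 26.1 CPM in SBM and 32.8, 31.6, 38.8 and 36.5 CPM in ACJ, with a log2 fold change of 0.46 ± 0.11. The septin LOC106589295, a cytoskeletal GTPase, measured 4.11, 4.50, 3.42 and 3.37 CPM in SBM and 8.55, 9.43, 7.31 and 7.43 CPM in ACJ (log2 fold change 1.09 ± 0.25). The other members were plcc (log2 fold change 0.38 ± 0.09), the ZBTB16 homolog above, and 4 genes for which the sources used here give no name, LOC106587635, LOC106593599, LOC106585371 and LOC106577148, with log2 fold changes from 0.52 to 1.85.

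The 10 genes lower in ACJ were taken by the same rule. LOC106612759, a glycerophosphodiester phosphodiesterase homolog, measured 11.3, 10.4, 17.9 and 20.03 CPM in SBM and 7.28, 6.14, 5.75 and 4.24 CPM in ACJ. Its log2 fold change was −1.34 ± 0.28, and DESeq2 over the 16 fish called it (adjusted p = 0.0296). The kinesin light chain klc1, which couples cargo to a microtubule motor, measured 39.7, 42.5, 41.9 and 34.5 CPM in SBM and 27.5, 28.8, 30.7 and 29.7 CPM in ACJ (log2 fold change −0.44 ± 0.10). The gene rab11fip3, an effector of recycling endosomes, measured 83.4, 100.3, 90.9 and 80.7 CPM in SBM and 72.97, 66.6, 64.6 and 68.5 CPM in ACJ (log2 fold change −0.38 ± 0.09). The ACJ fish were below the SBM fish by small margins in both. LOC106575232, a homolog of the repressor ZEB2, which in mammals directs macrophage and dendritic cell identity, measured 118, 141, 156 and 131 CPM in SBM and 101, 94.9, 108 and 101 CPM in ACJ, with a log2 fold change of −0.43 ± 0.10. The actin-binding neurabin-1 homolog LOC106586230 (−0.43 ± 0.10), the kinase and repressor described above, and LOC106567551 and LOC106600855, without a name in the sources used here (−0.81 ± 0.19 and −0.56 ± 0.14), were also among the 10. With the level of the pancreatic markers as a covariate, a fit chosen after seeing the data, rab11fip3, the ZEB2 homolog and the STK17A homolog were among 7 genes (0.0242%) that edgeR called over 16 fish, all lower in ACJ (adjusted p = 0.0152, 0.0485 and 0.00193).

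Genes were then read by function and cell type in 26 lists, 2 of which, the exocrine pancreas and islet markers, were added after the data were seen. A broader pancreas list matched only gcg, the glucagon gene (log2 fold change 1.36 over 16 fish), which the islet list also holds, so it was not drawn. Many members of these lists were named from the study's own tables of changed genes in these fish. Neither their direction nor the share of them that was called or separate is therefore independent evidence. The plot of list members shows all fold changes, and the heat map shows each list by fish.

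**Figure D2:**
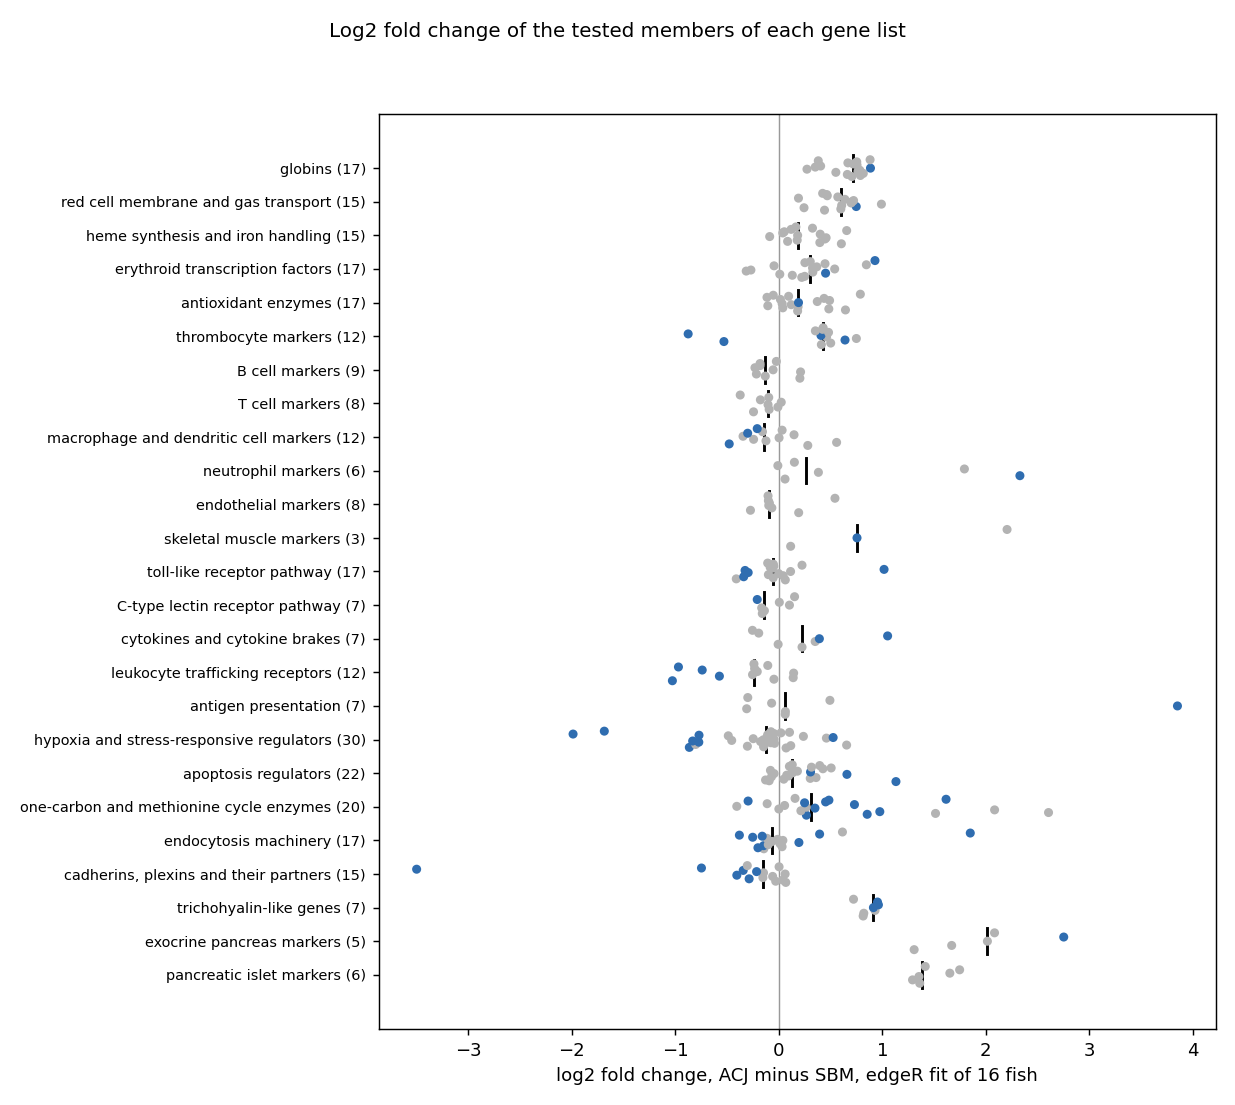
Log2 fold change of ACJ against SBM from the 16-fish fit (horizontal axis) for every tested member of each gene list (rows), with a bar at the list median and members at an unadjusted p below 0.05 in blue. Medians lie from −0.24 for leukocyte trafficking receptors to 2.02 for exocrine pancreas markers, with the 17 globins all above 0.

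Red cell genes were higher in ACJ as a group. All 17 globin genes were higher in ACJ, with a median log2 fold change of 0.72, and in 12 of the 17 every ACJ fish was above every SBM fish, against 2.67% of all genes. Names in the study's tables of changed genes matched 14 of the 17, so such shares are partly built in. Over the other 3, matched by gene symbol, the median was 0.55, and those tables also named hba among these 3. Only 1 of the 17 passed an unadjusted p of 0.05 in the 16-fish fit (3.54% of all genes). In the 8 fish, 9 were called higher by DESeq2, against 0.444% of all genes, and none was called by edgeR in either design. Globins took 2.74, 2.32, 1.53 and 2.67% of the counts in SBM and 3.27, 3.67, 3.72 and 3.62% in ACJ. The 4 ACJ fish were close together, while SBM3 was clearly the lowest fish. Without SBM3, the edgeR fit of 7 fish called 7 of the 17 globins, against 0.0605% of all genes, and the list median was 0.56, the lowest of the fits that left out 1 fish. The other diets were far more spread, with 3.22 to 6.61% in FM and 1.38 to 6.05% in ICJ.

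The most abundant globin, the beta subunit gene LOC106607372 on chromosome 6 from 34553872 to 34554831, measured 6885, 6323, 3822 and 6774 CPM in SBM and 8915, 10046, 9792 and 10431 CPM in ACJ. Its log2 fold change was 0.72 ± 0.37, and its adjusted p was 0.746 by edgeR over 16 fish and 0.00145 by DESeq2 over the 8 fish. The neighbouring alpha subunit gene LOC106607375, from 34551141 to 34552055, measured 5132, 4702, 3052 and 5549.6 CPM in SBM and 7978, 8440.4, 6993 and 7718 CPM in ACJ (log2 fold change 0.76 ± 0.36, DESeq2 adjusted p = 0.000502). A second cluster on chromosome 3 held the beta globin LOC100136576, from 63653656 to 63673010, which measured 6291, 5482, 3575 and 6023 CPM in SBM and 8064, 8841, 8660.2 and 9293 CPM in ACJ. The ranges of ACJ and SBM did not meet for any of these genes. Globins are a multicopy family, and how fragments were divided among similar copies is uncertain.

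**Figure D3:**
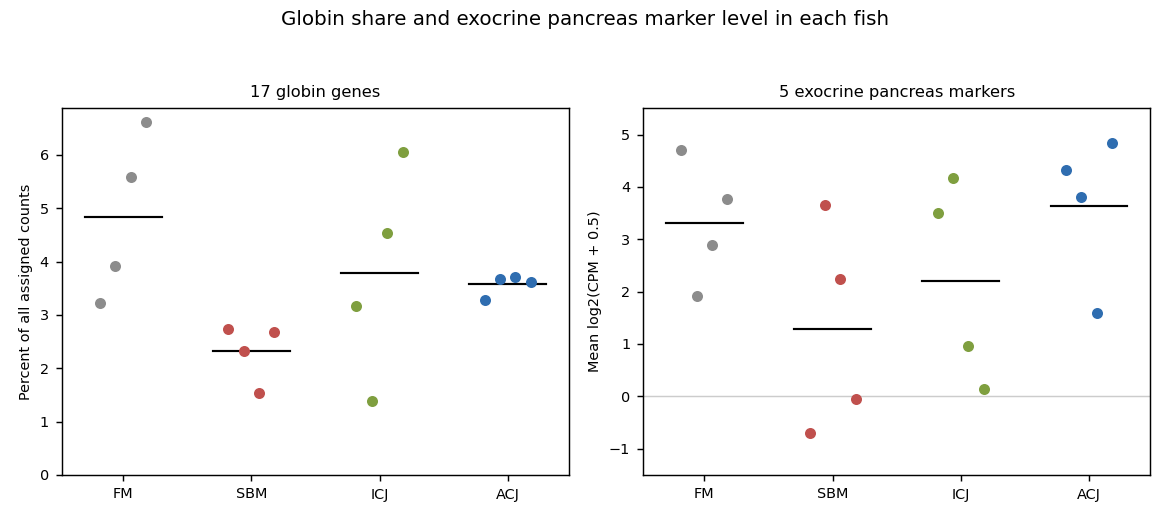
Globin share of the counts in percent and mean log2 CPM of the exocrine pancreas markers for each of the 16 fish, grouped by diet. ACJ fish lie between 3.27 and 3.72% globin, above all SBM fish (1.53 to 2.74%), and their pancreas marker level runs from 1.58 to 4.83, against −0.71 to 3.65 in SBM.

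Other red cell genes were also higher in ACJ. Of 15 genes for the red cell membrane and gas transport, all were higher in ACJ (median log2 fold change 0.60), 7 were called higher by DESeq2 in the 8 fish (0.444% of all genes), and kel was the 1 called by edgeR (0.0288%). In 8 of the 15 every ACJ fish was above every SBM fish (2.67% of all genes), and 1 passed an unadjusted p of 0.05 in the 16-fish fit (3.54%). Only 3 of the 15 were matched by gene symbol and not through a name in the study's tables for these fish, and their median was 0.57. Those tables also named cahz and LOC106571195 among these 3, so this median is not independent of them. Carbonic anhydrase cahz, which speeds the exchange of carbon dioxide and bicarbonate, measured 638, 518, 379 and 744 CPM in SBM and 844, 879, 954 and 872 CPM in ACJ (log2 fold change 0.64 ± 0.43, DESeq2 adjusted p = 0.0177). Band 3, the chloride and bicarbonate exchanger, had several copies, of which LOC106606869 measured 199.96, 146, 99.1 and 197 CPM in SBM and 255, 257, 272 and 277 CPM in ACJ. The copy LOC106606856 measured 169, 117, 98.3 and 176 CPM in SBM and 230.5, 200.1, 241 and 242 CPM in ACJ. SBM3 was the lowest fish for each, and no ACJ fish fell inside the SBM range. For heme synthesis and iron handling, 14 of 15 genes were higher (median 0.18), none at an unadjusted p below 0.05 over 16 fish and 2 by DESeq2 in the 8 fish (0.444% of all genes). One of these, the ferritin heavy subunit LOC100136564, which stores iron, measured 2844, 2690.4, 2298 and 2766 CPM in SBM and 3096, 3248, 3371 and 3567 CPM in ACJ (log2 fold change 0.33 ± 0.16, DESeq2 adjusted p = 0.0215). The other was slc25a37, the mitochondrial iron importer, at 41.9, 33.4, 25.6 and 49.03 CPM in SBM and 54.6, 53.3, 63.7 and 65.4 CPM in ACJ (DESeq2 adjusted p = 0.0447). The first enzyme of heme synthesis in red cells, alas2, measured 2361, 1459.97, 1389.7 and 2099 CPM in SBM and 2261, 2305, 2459 and 2623 CPM in ACJ, and SBM1 was inside the ACJ range. Transferrin receptor LOC106597167, which brings iron into the cell, measured 709, 412, 394 and 649 CPM in SBM and 744, 659, 813 and 735 CPM in ACJ, with SBM1 above ACJ2. The study's tables of changed genes in these fish named both heme and iron genes that DESeq2 called.

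Regulators of red cell development and antioxidant genes were higher by smaller amounts. The list of erythroid transcription factors also held the erythropoietin receptor genes epor and LOC106601362, which are not transcription factors. Of its 17 genes, 14 were higher (median log2 fold change 0.30), 2 were at an unadjusted p below 0.05 (3.54% of all genes), and 3 were called by DESeq2 in the 8 fish (0.444%). Names in the study's tables for these fish matched 10 of the 17, and the median over the other 7, matched by gene symbol, was 0.33. Those tables also named tal1, zfpm1, gata1 and LOC106567066 (nfe2) among these 7, so this median is not independent of them. The master regulator gata1, chosen after its values were seen, measured 38.4, 38.03, 30.8 and 42.8 CPM in SBM and 51.9, 50.8, 50.7 and 51.4 CPM in ACJ (log2 fold change 0.45 ± 0.29, DESeq2 adjusted p = 0.0393). The hemogen homolog LOC106602333 measured 51.5, 43.6, 35.6 and 47.5 CPM in SBM and 61.7, 60.5, 73.1 and 63.9 CPM in ACJ (DESeq2 adjusted p = 0.0113). LOC106574039, a homolog of TAL1, measured 13.3, 9.78, 5.34 and 13.2 CPM in SBM and 22.5, 21.6, 17.8 and 17.8 CPM in ACJ (DESeq2 adjusted p = 0.0393). The ACJ fish were above all SBM fish for these 3 genes, and least variable for gata1. Antioxidant enzymes were higher for 14 of 17 genes (median 0.18) and summed to 656 to 752 CPM in SBM and to 851 to 903 CPM in ACJ, without overlap. Over the 12 matched by gene symbol the median was 0.067, and the study's tables also named prdx1 among these 12. Of the 17, 1 was at an unadjusted p below 0.05 (3.54% of all genes). Catalase-like LOC106586175, which breaks down hydrogen peroxide and was chosen after its values were seen, measured 62.9, 65.4, 40.8 and 61.1 CPM in SBM and 94.5, 87.3, 89.2 and 88.7 CPM in ACJ (log2 fold change 0.64 ± 0.39, DESeq2 adjusted p = 0.00182). Peroxiredoxin prdx1, which reduces peroxides, measured 115, 92.2, 81.7 and 113 CPM in SBM and 128, 142, 139.9 and 154 CPM in ACJ (DESeq2 adjusted p = 0.0194). The superoxide dismutase sod1 measured 107, 122, 111 and 124 CPM in SBM and 132, 139.9, 133 and 125 CPM in ACJ, with ACJ4 barely above SBM4.

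A family annotated as trichohyalin-like was also higher. Trichohyalin is a structural protein of mammalian hair follicles, and the role of the salmon genes is not given in the sources used here. All 7 were higher in ACJ (median log2 fold change 0.91), 3 at an unadjusted p below 0.05 (3.54% of all genes), and DESeq2 called 6 in the 8 fish (0.444%). LOC106570020 on chromosome 14, from 57021064 to 57029498, measured 175, 207, 122 and 164 CPM in SBM and 302, 282, 256 and 342 CPM in ACJ (log2 fold change 0.82 ± 0.38, DESeq2 adjusted p = 3.43e-05). Its neighbour LOC106570025, from 56984942 to 56994232, measured 185, 217, 117 and 189 CPM in SBM and 301, 298, 299.95 and 347 CPM in ACJ. The summed level was 347 to 656 CPM in SBM and 822 to 1037 CPM in ACJ, with SBM3 again the lowest fish. In FM it ran from 648 to 1607 CPM and in ICJ from 346 to 1258 CPM. All 7 had been named from the study's tables for these fish.

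Thrombocyte genes were mostly higher. Of 12, 10 were higher (median log2 fold change 0.43), 4 were called higher by DESeq2 in the 8 fish (0.444% of all genes), and 6 had every ACJ fish above every SBM fish (2.67%). In the 16-fish fit, 2 were higher and 2 were lower at an unadjusted p below 0.05 (3.54% and 3.35% of all genes). Names in the study's tables for these fish matched 8 of the 12, and the median over the other 4, matched by gene symbol, was 0.48. Those tables also named f13a, LOC106600877 (itga2b) and LOC106571903 (gp9) among these 4, so this median is not independent of them. Coagulation factor XIII A chain f13a, which cross-links fibrin, measured 769.8, 772, 512 and 686 CPM in SBM and 1074, 1106, 875 and 825 CPM in ACJ (log2 fold change 0.50 ± 0.29, DESeq2 adjusted p = 0.0447). Integrin beta-3-like LOC106579149, a chain of the fibrinogen receptor, measured 281, 256, 193 and 255 CPM in SBM and 376, 400.3, 309.9 and 288 CPM in ACJ (DESeq2 adjusted p = 0.0469). The thrombopoietin receptor homolog LOC106560515, chosen after its values were seen, measured 115, 115, 72.1 and 91.2 CPM in SBM and 169, 175, 127 and 142 CPM in ACJ (DESeq2 adjusted p = 0.0116). LOC106573821, a homolog of the megakaryocyte-associated kinase, measured 154, 154, 127 and 169 CPM in SBM and 219, 199, 196 and 188 CPM in ACJ (DESeq2 adjusted p = 0.0128). In all of these the ranges were separate. Of the 2 genes lower in ACJ, both at an unadjusted p below 0.05, 1 was the thromboxane A2 receptor homolog LOC106574152. It measured 26.9, 12.7, 23.5 and 10.4 CPM in SBM and 9.34, 7.04, 9.14 and 15.1 CPM in ACJ, where the diets overlapped. The other copies of the thrombopoietin receptor (LOC106584017) and of the megakaryocyte-associated kinase (LOC106613678) were tested and not called by DESeq2 in the 8 fish.

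**Figure D4:**
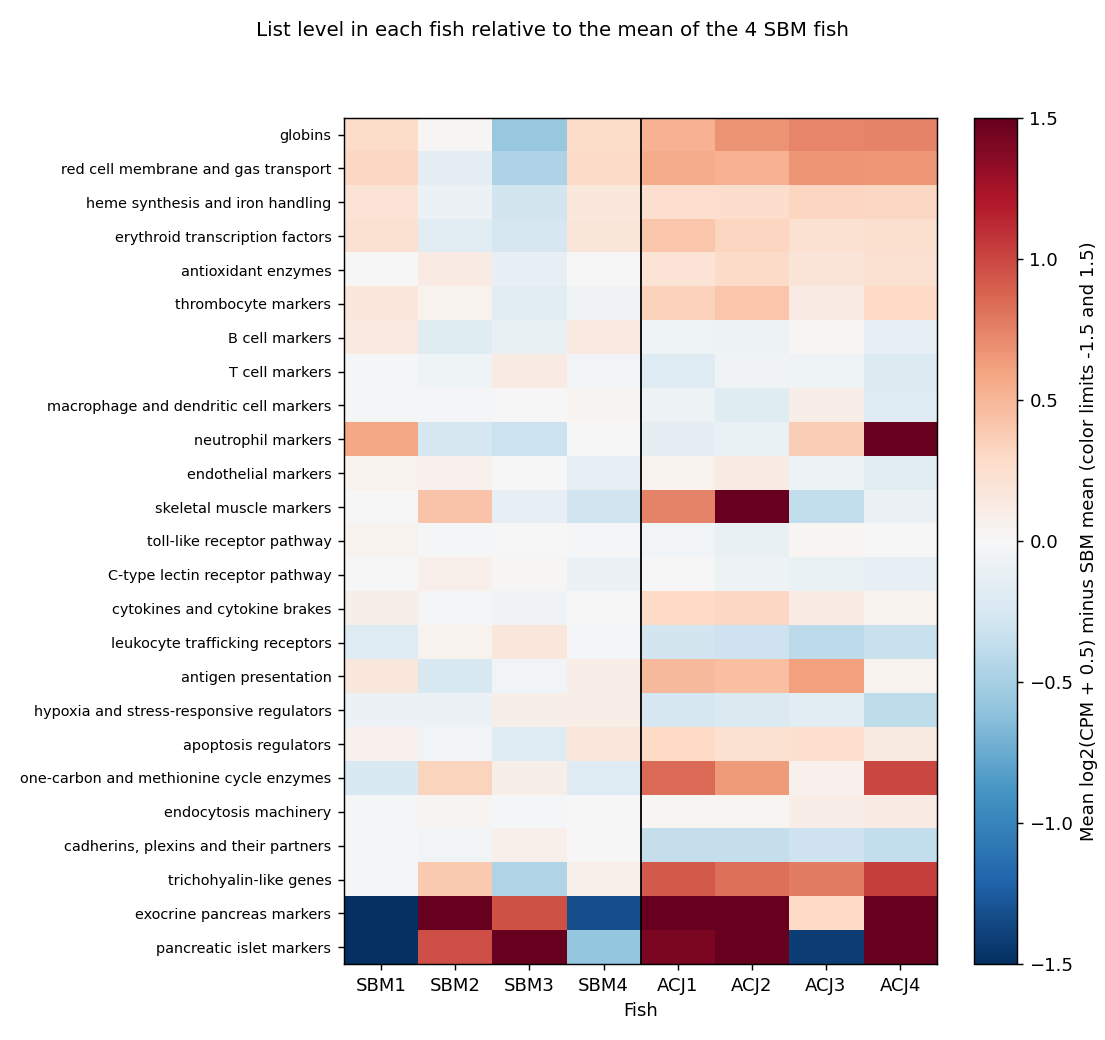
Mean log2 CPM of each gene list (rows) in each of the 4 SBM and 4 ACJ fish (columns), drawn as the difference from the SBM mean of that list, with colors limited to −1.5 and 1.5. The 4 ACJ fish are above all SBM fish for globins (0.52 to 0.74 against −0.56 to 0.28) and trichohyalin-like genes (0.77 to 1.04 against −0.46 to 0.40), ACJ3 (0.12) is below SBM1 (0.15) for thrombocyte markers, and pancreas lists vary between fish within each diet.

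Lymphocyte and endothelial marker lists were close to the background. Of 9 B cell genes 7 were lower in ACJ (median log2 fold change −0.13), of 8 T cell genes 7 were lower (−0.10), and of 8 endothelial genes 6 were lower (−0.09), none of them at an unadjusted p below 0.05. With the pancreas marker level in the fit the B cell median was 0.19. The B cell receptor chain cd79b measured 148, 129.9, 134 and 135 CPM in SBM and 125, 115, 114 and 129.7 CPM in ACJ (log2 fold change −0.18 ± 0.10), a small and complete separation. The T cell receptor chain cd3e measured 99.7, 95.5, 111 and 90.9 CPM in SBM and 95.1, 89.3, 99.2 and 87.01 CPM in ACJ (exact permutation test, two-sided p = 0.2), and the diets overlapped. Stabilin stab2, a scavenger receptor of sinusoidal endothelium, measured 253, 291, 247 and 225 CPM in SBM and 209.7, 199, 206 and 226 CPM in ACJ, with ACJ4 just above the lowest SBM fish.

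Macrophage and dendritic cell genes were lower for 7 of 12 (median log2 fold change −0.14), and 3 of the 7 were at an unadjusted p below 0.05, against 3.35% of all genes. Over the 7 members matched by gene symbol, and not through a name in the study's tables for these fish, the median was 0.0028. Those tables also named mrc1 among these 7. The mannose receptor mrc1, which binds yeast mannan, measured 1468, 1779, 1453 and 1310.5 CPM in SBM and 1379, 1334, 1273 and 1218 CPM in ACJ (log2 fold change −0.21 ± 0.10), and the ranges overlapped between ACJ1 and SBM4. ACJ4 had the lowest summed macrophage level of the 4 ACJ fish. That fish also had the highest neutrophil level, 1500 CPM over 6 genes against 401 to 479 CPM in the other ACJ fish and 375 to 535 CPM in SBM. The collagenase mmp13 measured 84.7, 17.7, 14.1 and 22.2 CPM in SBM and 26.6, 27.3, 55.4 and 592 CPM in ACJ. The gelatinase mmp9, stored in neutrophil granules, measured 70.8, 18.01, 17.8 and 22.7 CPM in SBM and 21.7, 23.2, 54.5 and 353 CPM in ACJ. ACJ4 and, to a lesser degree, SBM1 stood apart from their diets in both, and without ACJ4 the median of the neutrophil list was 0.01.

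Pattern recognition pathways held members in both directions. In the toll-like receptor pathway 5 of 17 genes were higher (median log2 fold change −0.05), 1 higher and 3 lower at an unadjusted p below 0.05 (3.54% and 3.35% of all genes), and DESeq2 called 1 in each direction in the 8 fish (0.444% and 0.222%). The median was 0.04 with the pancreas marker level in the fit. In this list, 3 of the 17 were matched by a name in the study's tables for these fish, among them both genes that DESeq2 called. The call upward was LOC106572737, a p38 kinase (MAPK14A) homolog, at 4.96, 7.14, 5.34 and 5.69 CPM in SBM and 13.9, 9.88, 8.88 and 14.4 CPM in ACJ (DESeq2 adjusted p = 0.0113). For another copy of this kinase gene, LOC106566983 (mapk14a), the diets overlapped and DESeq2 made no call in the 8 fish. The call downward was LOC106563018, a homolog of the regulatory subunit of phosphatidylinositol 3-kinase, at 144, 167, 168 and 146 CPM in SBM and 129.8, 128, 132 and 119.7 CPM in ACJ (DESeq2 adjusted p = 0.0492). Both called genes separated the diets. The NF-kappa-B inhibitor LOC106611175 (nfkbiab) measured 58.5, 62.9, 73.1 and 91.5 CPM in SBM and 53.2, 60.2, 55.4 and 57.7 CPM in ACJ, with ACJ at the low end of SBM. Of 7 C-type lectin receptor pathway genes, through which fungal glucans signal in mammals, 3 were higher (median −0.14), and 1 was lower at an unadjusted p below 0.05 (3.35% of all genes). Among these 7, 2 were matched by a name in the study's tables for these fish, and those tables also named mrc1.

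Of 7 tested cytokine and cytokine brake genes, 6 of them named from the study's tables, 4 were higher in ACJ (median log2 fold change 0.22), and 2 of these were at an unadjusted p below 0.05 (3.54% of all genes). Tumor necrosis factor alpha, LOC100136509 on chromosome 14 from 86977299 to 86980399, measured 6.23, 4.19, 3.29 and 4.96 CPM in SBM and 6.17, 9.14, 12.3 and 11.2 CPM in ACJ. ACJ2, ACJ3 and ACJ4 were above all SBM fish, ACJ1 was just below SBM1, and the exact permutation test gave a two-sided p of 0.0571, where 0.0286 is the smallest that 4 fish against 4 allow. The log2 fold change was 1.05 ± 0.32 (edgeR adjusted p = 0.657 over 16 fish, DESeq2 adjusted p = 0.0469 over 8). Another copy, LOC106589058 (tnfa), did not pass the expression filter and was not tested. Transforming growth factor beta-1, LOC106563563, which restrains immune responses, measured 24.5, 21.1, 21.2 and 23.5 CPM in SBM and 31.02, 26.2, 28.2 and 33.5 CPM in ACJ, all ACJ fish above all SBM fish by a narrow margin (log2 fold change 0.39 ± 0.15, DESeq2 adjusted p = 0.241). Its other copy in the list, LOC106613337 (tgfb1a), had a log2 fold change of −0.006 over 16 fish.

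Genes for further proteins that the study measured by ELISA varied within the diets. The membrane-bound IgM heavy chain copies overlapped widely. LOC106597540 measured 27.05, 10.9, 18.9 and 22.98 CPM in SBM and 19.3, 19.6, 28.99 and 9.76 CPM in ACJ, and LOC106601717 measured 15.6, 7.14, 14.8 and 16.03 CPM in SBM and 8.07, 11.7, 18.5 and 7.22 CPM in ACJ. The invariant chain cd74a (LOC106604844), the chaperone of MHC II and not MHC II itself, measured 4917, 5845, 5043 and 5669 CPM in SBM and 5699.97, 5681, 5481 and 5555 CPM in ACJ (log2 fold change 0.06 ± 0.08). The transcription factor zbtb46, a dendritic cell regulator in mammals, measured 32.9, 25.8, 39.01 and 19.5 CPM in SBM and 22.6, 13.03, 27.9 and 28.6 CPM in ACJ. Its copy LOC106600540 measured 7.51, 6.99, 10.95 and 6.64 CPM in SBM and 5.54, 4.94, 7.05 and 5.31 CPM in ACJ (log2 fold change −0.48 ± 0.22, edgeR adjusted p = 0.712). None of these genes separated the diets.

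Receptors that guide leukocytes were lower in ACJ for 10 of 12 genes (median log2 fold change −0.24), 4 at an unadjusted p below 0.05 (3.35% of all genes). DESeq2 called 2 lower in the 8 fish, against 0.222% of all genes. Names in the study's tables for these fish matched 6 of the 12, and the median over the other 6, matched by gene symbol, was −0.17. Those tables also named ccr9 and cxcr4 among these 6, so this median is not independent of them. The chemokine receptor ccr9, which in mammals draws lymphocytes to the gut, lies on chromosome 14 from 5372143 to 5375220 and measured 50.7, 57.4, 71.6 and 59.1 CPM in SBM and 32.8, 42.8, 37.7 and 29.3 CPM in ACJ. The highest ACJ fish was below the lowest SBM fish, the log2 fold change was −0.74 ± 0.18, and the adjusted p was 0.602 by edgeR over 16 fish and 0.000378 by DESeq2 over 8. The receptor cxcr4, which in mammals retains cells in marrow and lymphoid tissue and was chosen after its values were seen, measured 24.5, 35.1, 63.4 and 37.6 CPM in SBM and 20.7, 20.2, 20.5 and 20.6 CPM in ACJ. The 4 ACJ fish were almost identical, whereas SBM fish spread upward from just above the ACJ level (log2 fold change −0.97 ± 0.42, DESeq2 adjusted p = 0.0111). LOC106578794, a CXCR3 homolog also chosen after its values were seen, measured 7.22, 10.1, 17.1 and 17.8 CPM in SBM and 6.96, 8.39, 6.79 and 3.18 CPM in ACJ, with SBM1 inside the ACJ range. Cxcr5 (LOC106613395), the B cell follicle receptor, measured 10.3, 13.4, 13.7 and 12.5 CPM in SBM and 8.86, 6.44, 6.01 and 12.9 CPM in ACJ, with ACJ4 inside the SBM range.

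Of 7 antigen presentation genes, 4 were higher (median log2 fold change 0.06), and 1 was at an unadjusted p below 0.05 (3.54% of all genes). The gene with the largest fold change among them was LOC106569843, annotated by similarity to a bovine MHC class I alpha chain, on chromosome 14 from 50983088 to 51003566, which measured 5.10, 4.04, 7.80 and 8.01 CPM in SBM and 155, 151, 53.1 and 4.88 CPM in ACJ. It was high in ACJ1, ACJ2 and ACJ3, at the SBM level in ACJ4, and called by DESeq2 in the 8 fish (adjusted p = 0.00605) and not by edgeR (adjusted p = 0.407). FM ran from 5.32 to 159 CPM and ICJ from 2.93 to 193 CPM. MHC class I genes differ between individuals, and genotype was not measured here. LOC106569843 was also the 1 member of this list matched by a name in the study's tables for these fish.

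**Figure D5:**
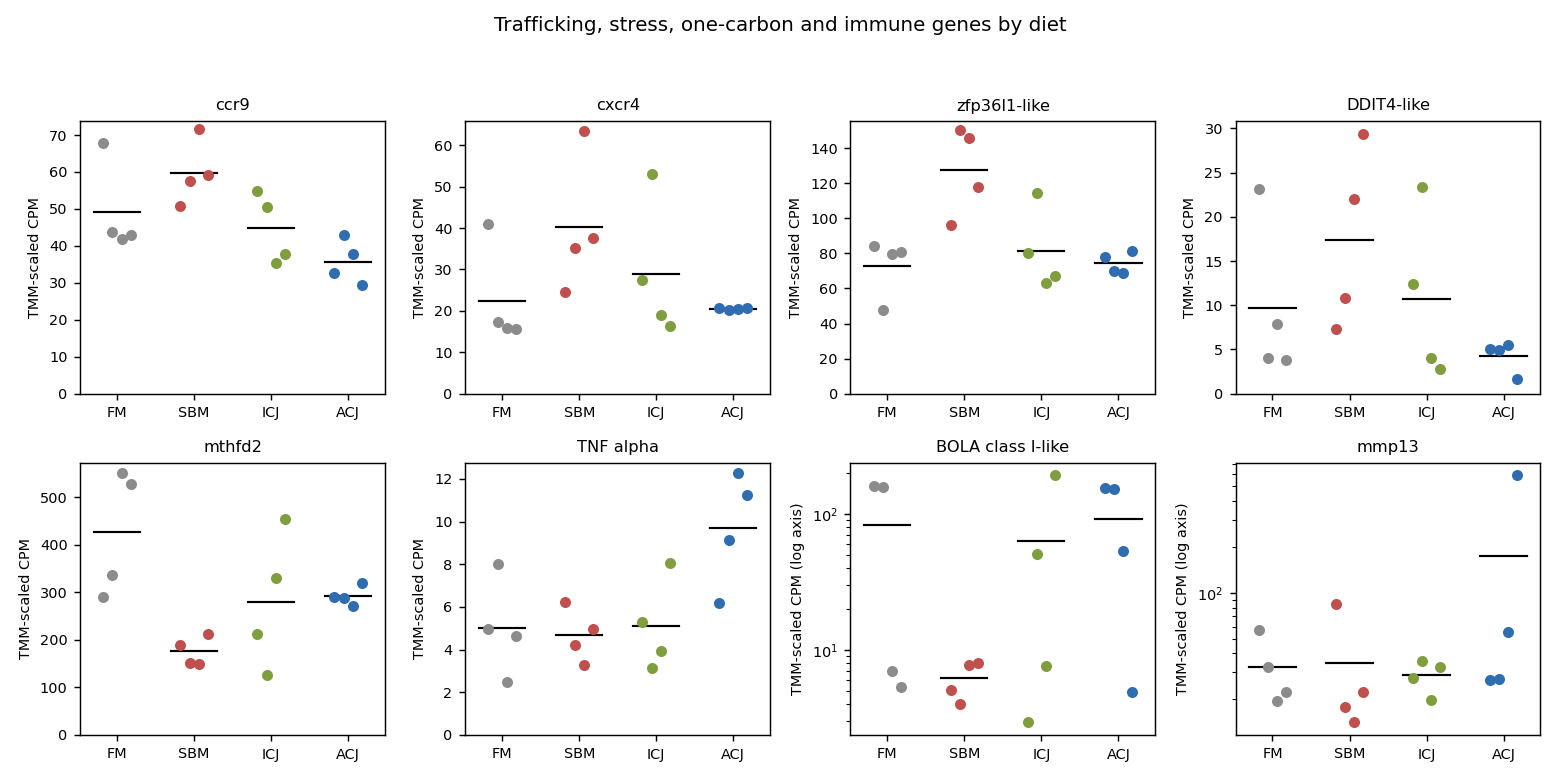
Level in CPM of 8 further genes in each fish of FM, SBM, ICJ and ACJ, with a bar at the diet mean, on linear axes from 0 except for the class I gene and mmp13, which are on log axes. The ACJ points for ccr9 (29.3 to 42.8 CPM) lie below the SBM points (50.7 to 71.6 CPM), and ACJ4 alone reaches 592 CPM for mmp13.

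Stress-responsive regulators were lower in ACJ for 22 of 30 genes (median log2 fold change −0.12). At an unadjusted p below 0.05, 6 were lower and 1 was higher (3.35% and 3.54% of all genes), and DESeq2 called 5 lower and 1 higher in the 8 fish (0.222% and 0.444%). Of the 31 genes in the list before the expression filter, 9 were matched by a name in the study's tables for these fish, so such shares are partly built in. The median over the 22 tested genes matched by gene symbol was −0.08, and those tables also named LOC106613686 (klf2a) among these 22. LOC106608164, a homolog of ZFP36L1, which speeds the decay of messenger RNAs for cytokines, lies on chromosome 6 from 75756212 to 75771023 and measured 96.02, 150.3, 146 and 118 CPM in SBM and 78.2, 70.1, 68.9 and 81.3 CPM in ACJ (log2 fold change −0.77 ± 0.21, DESeq2 adjusted p = 4.58e-05). All ACJ fish were below all SBM fish. With the pancreas marker level in the fit, edgeR called it over 16 fish at a log2 fold change of −1.11 and an adjusted p of 0.00193. The next genes were chosen after their values were seen. LOC106577395, a homolog of DDIT4, an inhibitor of mTOR induced by low oxygen and glucocorticoids, measured 7.36, 10.9, 22.04 and 29.4 CPM in SBM and 5.07, 4.94, 5.48 and 1.70 CPM in ACJ (log2 fold change −1.99 ± 0.77, DESeq2 adjusted p = 0.00101). Its copy LOC106592479 measured 2.55, 6.52, 11.8 and 13.5 CPM in SBM and 2.85, 3.59, 2.61 and 1.49 CPM in ACJ (DESeq2 adjusted p = 0.0402). In both copies SBM3 and SBM4 were the high fish, and in the second SBM1 was inside the ACJ range.

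The kinase SGK1 homolog LOC106570356, another glucocorticoid-responsive gene, measured 15.9, 12.4, 20.7 and 17.6 CPM in SBM and 9.66, 10.8, 10.7 and 7.64 CPM in ACJ (DESeq2 adjusted p = 0.0358). The transcription factor cebpd measured 25.1, 29.2, 37.5 and 36.4 CPM in SBM and 19.2, 19.6, 21.8 and 12.3 CPM in ACJ (DESeq2 adjusted p = 0.00898). The oxygen-sensing hydroxylase egln3 measured 11.2, 17.1, 9.31 and 10.4 CPM in SBM and 6.33, 6.59, 6.01 and 7.43 CPM in ACJ (DESeq2 adjusted p = 0.0531). Its copy LOC106611226 measured 9.35, 10.6, 7.67 and 7.27 CPM in SBM and 5.07, 6.29, 5.22 and 2.55 CPM in ACJ. Each of these genes had its 4 ACJ fish below its 4 SBM fish. Opposite in direction was klf4, at 23.2, 20.8, 19.2 and 27.2 CPM in SBM and 34.5, 41.3, 36.3 and 30.3 CPM in ACJ (log2 fold change 0.66 ± 0.42, DESeq2 adjusted p = 0.00745). So was the immediate early gene ier2, at 12.3, 8.54, 9.17 and 10.8 CPM in SBM and 12.5, 10.6, 15.4 and 20.8 CPM in ACJ, where the diets overlapped. The first DDIT4 copy ran from 3.82 to 23.1 CPM in FM and from 2.83 to 23.4 CPM in ICJ, across both other diets. Another copy each of SGK1 (LOC106593510) and cebpd was tested in this list, as were fkbp5, LOC106612265 (tsc22d3) and LOC106608520 (per1b). None of them had all ACJ fish below all SBM fish, and DESeq2 called none of them lower in the 8 fish.

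Apoptosis regulators were higher in ACJ for 17 of 22 genes (median log2 fold change 0.13), 3 at an unadjusted p below 0.05 (3.54% of all genes) and 3 by DESeq2 in the 8 fish (0.444%). Among the 22, 6 were matched by a name in the study's tables for these fish, so such shares are partly built in. The median over the other 16, matched by gene symbol, was 0.12, and those tables also named tp53inp2 among these 16. Besides tp53inp2, LOC106562007, a homolog of the mitochondrial death and mitophagy protein BNIP3, measured 12.2, 15.8, 5.20 and 19.2 CPM in SBM and 33.6, 33.1, 28.7 and 19.7 CPM in ACJ (log2 fold change 1.13 ± 0.47, DESeq2 adjusted p = 0.0369). ACJ4 was only just above SBM4, and the other ACJ fish were well clear.

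One-carbon and methionine cycle enzymes, which pass methyl groups to nucleotides and to S-adenosylmethionine, were the list with the most members at an unadjusted p below 0.05. Of 20 genes 17 were higher (median log2 fold change 0.31), 9 at an unadjusted p below 0.05 (3.54% of all genes) and 4 by DESeq2 in the 8 fish (0.444%). Of the 3 lower genes, 1 was at an unadjusted p below 0.05 (3.35%). In this list, 5 of the 20 were matched by a name in the study's tables for these fish, so such shares are partly built in. The median over the other 15, matched by gene symbol, was 0.27. Those tables also named sardh, shmt2, mtr and LOC106580352 (mthfd2) among these 15. The mitochondrial folate enzyme mthfd2, LOC106580352 on chromosome 20 from 26318366 to 26326733, measured 189, 151, 149 and 213 CPM in SBM and 291, 287, 271 and 319 CPM in ACJ (log2 fold change 0.73 ± 0.33). ACJ was above SBM in every fish. The adjusted p was 4.46e-06 by DESeq2 and 0.0657 by edgeR in the 8 fish, and FM ran from 289 to 551 CPM. Methionine synthase reductase LOC106590608, which reactivates the enzyme that remakes methionine, measured 24.9, 24.2, 23.4 and 20.3 CPM in SBM and 33.9, 33.1, 30.6 and 32.3 CPM in ACJ (log2 fold change 0.48 ± 0.16, DESeq2 adjusted p = 0.0264). Cystathionine beta-synthase LOC106586691, the first step from homocysteine to cysteine, measured 41.2, 36.3, 29.7 and 36.3 CPM in SBM and 54.3, 48.8, 41.9 and 51.6 CPM in ACJ (log2 fold change 0.45 ± 0.15). The diets were separate for both. Serine hydroxymethyltransferase shmt2 and mthfd1, chosen after their values were seen, had log2 fold changes of 0.35 ± 0.12 and 0.27 ± 0.10, and thymidylate synthase tyms, the 1 lower gene at an unadjusted p below 0.05, had −0.30 ± 0.11.

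Part of this list followed the pancreatic markers from fish to fish. Betaine-homocysteine methyltransferase, best known from liver, was chosen after its values were seen. LOC106568115 measured 0.708, 58.2, 15.9 and 0.949 CPM in SBM and 152, 93.9, 12.01 and 194 CPM in ACJ, and its copy bhmt measured 6.37, 102, 23.1 and 6.43 CPM in SBM and 173, 121, 13.3 and 272 CPM in ACJ. Both were lowest in SBM1 and SBM4, the fish nearly free of exocrine pancreas markers, and high in ACJ1, ACJ2 and ACJ4. The pancreatic gene erp27 measured 0.142, 38.3, 19.2 and 1.05 CPM in SBM and 70.6, 52.3, 10.2 and 100.2 CPM in ACJ in the same fish. Sarcosine dehydrogenase sardh measured 14.4, 18.2, 15.3 and 14.5 CPM in SBM and 30.9, 33.4, 17.4 and 31.6 CPM in ACJ (log2 fold change 0.85 ± 0.29), with ACJ3 near SBM. With the marker level in the 16-fish fit, the log2 fold change went from 2.61 to 0.58 for LOC106568115 and from 0.85 to 0.31 for sardh. It went from 1.62 to 0.40 for LOC106593678, a second cystathionine beta-synthase copy. For mthfd2 it was larger with the marker level in the fit, 1.17 in place of 0.73, and for the methionine synthase reductase it was 0.52 in place of 0.48. For the whole list, the median was then 0.21, with 4 genes higher and none lower at an unadjusted p below 0.05, while the globin median was 1.12, with 14 of 17 genes at an unadjusted p below 0.05 all of them higher, in a fit that put 1277 genes (4.41%) higher at that level.

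Membrane traffic and adhesion genes were mixed. Of 17 endocytosis genes 7 were higher (median log2 fold change −0.06), with 3 higher and 5 lower at an unadjusted p below 0.05 (3.54% and 3.35% of all genes), rab11fip3 and the cytohesin among them. In this list, 9 of the 17 were matched by a name in the study's tables for these fish, so such shares are partly built in. The median over the other 8, matched by gene symbol, was −0.05, and those tables also named rab11fip3 and LOC106609887 (clta) among these 8. LOC106576214, a homolog of USP6NL, a GTPase-activating protein for Rab5, measured 121, 125, 124 and 123 CPM in SBM and 103, 105, 108 and 96.98 CPM in ACJ (log2 fold change −0.25 ± 0.07), a small difference with no overlap. Of 15 cadherins, plexins and their partners, 11 were lower (median −0.15), 6 at an unadjusted p below 0.05 (3.35%). Names in the study's tables for these fish matched 13 of the 15, and those tables also named nrp2, which was matched by gene symbol. Cadherin-11-like LOC106561988 measured 287, 279, 275 and 270.2 CPM in SBM and 236, 241, 230.5 and 204 CPM in ACJ (log2 fold change −0.29 ± 0.08, DESeq2 adjusted p = 0.0118). Plexin-B1-like LOC106566976, a semaphorin receptor, measured 58.3, 51.7, 49.1 and 45.5 CPM in SBM and 38.3, 35.8, 40.5 and 39.9 CPM in ACJ (log2 fold change −0.41 ± 0.10). A second cadherin-11 copy, LOC106587288, chosen after its values were seen, measured 48.1, 32.4, 41.5 and 34.1 CPM in SBM and 19.9, 21.9, 20.2 and 31.6 CPM in ACJ (DESeq2 adjusted p = 0.0114), with ACJ4 nearest to SBM. In each of the 3, no ACJ fish reached the SBM range.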

How the data were processed

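Spleen RNA of 16 fish was sequenced by the authors, who trimmed the reads, aligned them to the ICSASG_v2 genome and counted fragments per gene. The deposited values are these raw counts, without normalization. The submitters' processing notes name HISAT2 2.1.0 and featureCounts 1.4.6-p1, and the file headers name featureCounts 1.5.1 and sequencing lane 5 for all fish. Diet and replicate number came from the labels. The diet in the file header was that of the label for all 16 fish, whereas the library number in the header differed from the label's replicate number for 13. The chromosomes of 29 ICSASG_v2 sequences were read from RefSeq's entries for the genes on them (at least 82.57% of a sequence's genes shared 1 chromosome).

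In R 4.3.3, genes were filtered with filterByExpr, scaled by TMM and fitted with diet as the only term (edgeR 4.0.16, glmQLFit with robust estimation and glmQLFTest), using all 16 fish, and p-values were Benjamini-Hochberg adjusted over all tested genes. The fits were tested on simulated counts with known changes. Only the 8 fish, DESeq2 1.42.0, the likelihood ratio test of edgeR after filtering at 1 CPM, RLE scaling, no filter, removal of globins, the replicate block and each fish left out in turn were alternatives. Same-numbered fish are different animals, and their deviations correlated at −0.215, 0.103, −0.151 and −0.145, so the numbers did not pair the fish. After the data were seen, the mean log2(CPM + 0.5) of 5 exocrine pancreas markers was added as a covariate. No replicate pair agreed within sampling noise (chi-square per degree of freedom 4.81 to 32.4). Tests treat fish, not tanks, as replicates.

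The genes named are those called in the 8 fish, the 10 with the smallest unadjusted p in each direction among genes with no overlap and a mean log2 CPM of 1 or more, and in each list the 3 with the highest mean CPM and the 2 with the smallest p, of which the text gives those that bear on its results, and some are not reported here. Genes for proteins measured by ELISA were added, and no value is given for CD4, CD83, IgD, IL-10 and interferon gamma, which were not matched or not tested. Any other gene is described where it appears as chosen with its values in view. Members and lists were chosen with earlier results of these data known. Gene names came from the count tables, RefSeq symbols and names in the study's supplement, whose values were not used. Gene sequences were not used here.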

Additional observations from a re-analysis of the deposited data

Results flagged for a closer look

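In 15 of 266 sets of 4 fish, the highest or lowest fish was far from the other 3, by the gap to its neighbour as a share of the range (Dixon's test), and chance alone puts about 1 in 20 sets past this limit. ACJ4 was the fish apart for the proteases mmp13 (592 CPM, share 0.949) and mmp9 (353 CPM, 0.901), for summed neutrophil markers (1500 CPM, 0.929) and, as the lowest, for summed macrophage and dendritic cell markers (2468 CPM, 0.899). In SBM, SBM1 was the highest fish for mmp13 (84.7 CPM, 0.885) and mmp9 (70.8 CPM, 0.908).

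ACJ4 was also the highest for the trichohyalin-like gene LOC106570025 (347 CPM, 0.936), cadherin-11-like LOC106587288 (31.6 CPM, 0.836) and ankrd37, a gene induced by low oxygen (18.7 CPM, 0.899), and the lowest for the DDIT4 homolog LOC106577395 (1.70 CPM, 0.857). ACJ3 was the highest for LOC106593599 (4.83 CPM, 0.867) and the lowest for sardh (17.4 CPM, 0.842). In SBM, SBM2 was the lowest for IgM LOC106601717 (7.14 CPM, 0.860), SBM3 for summed antioxidant enzymes (656 CPM, 0.879), and 1 fish for summed cadherins and plexins (1621 CPM against 1652 to 1653 CPM, 0.956).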

How the results depend on the processing

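No gene was called over the 16 fish by edgeR's quasi-likelihood test, nor with RLE scaling, no filter, globins removed, the replicate block, or any 1 fish left out. The count moved with the settings: DESeq2 called 6 genes over 16 fish and 138 over 8, the likelihood ratio test together with a filter at 1 CPM 3, and edgeR over 8 fish 8. The fits with 1 fish left out called 3 to 17 genes in the 8-fish design (17 without SBM3, 16 without SBM1, 14 without SBM2, ACJ3 or ACJ4, 10 without SBM4, 3 without ACJ1 or ACJ2). The replicate block gave 0 calls over 16 fish and 10 over 8, sharing 5 with the 8, and the pairing has no basis in the labels. The pancreas marker covariate, chosen after seeing the data, gave 7 calls over 16 fish and 13 over 8. At an unadjusted p below 0.05 the count ran from 1421 to 2199 with 1 fish left out of 16, from 1800 to 2729 with 1 left out of 8, and was 1957 with the block.

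Of 2885 gene values under the alternatives, 15 changed sign. With the covariate over 16 and 8 fish, IgM LOC106597540 went from −0.02 to 0.75 and 0.67, LOC106601717 to 0.51 and 0.41, ctrb to −0.86 and −1.10 and gcg to −2.58 and −1.26, and bhmt went to −0.026 over 8 fish. With 1 fish left out, LOC106597540 ran from −0.29 to 0.19 (0.15 without SBM1, 0.053 without SBM4, or 0.055 in the 8-fish design, 0.18 without ACJ4 in the 8-fish design). Of 701 list medians under the alternatives, 47 moved by over 1 SD, in 17 lists. With the covariate over 16 fish, the medians of B cell markers (−0.13 to 0.19), the toll-like receptor pathway (−0.05 to 0.04) and islet markers (1.39 to −1.72) turned. Those of globins (0.72 to 1.12), red cell membrane (0.60 to 0.99), heme (0.18 to 0.49), erythroid factors (0.30 to 0.54), apoptosis (0.13 to 0.35) and trafficking receptors (−0.24 to −0.40) grew by over 1.5 times. Those of cytokines (0.22 to 0.12), macrophage markers (−0.14 to −0.07), C-type lectin receptors (−0.14 to −0.08) and antigen presentation (0.06 to 0.0023) shrank by as much. The median of the exocrine markers went from 2.02 to 0.079, which was built in, since these 5 genes make up the covariate. This also applies to the fall of ctrb, 1 of the 5. The cause of the other changes was not tested. Depth limits genes of few CPM, such as cadherin-4-like in ACJ, to a handful of counts per fish.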
